A study of Mus musculus with 32 samples.

Results

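Blood progenitor cells of control mice from 2 inducible Cre lines were compared across all genes, without regard to the deletion that the mice were bred for. The comparison holds 8 of the 32 RNA-seq libraries of the series, 4 from each line and each from a different C57BL/6 adult, and 13692 of the 27179 genes in the count table passed the filter on low counts. The Mx1Cre controls were Hbo1fl/+;Mx1Cre mice (2 females and 2 males) given polyIC, and the CreER controls were Hbo1fl/+;CreER mice (3 females and 1 male), in which Cre is expressed from the Rosa locus as CreERT2, given tamoxifen. Sample titles state that 1 allele of Hbo1, also called Kat7, was deleted in both groups, whereas the treatment protocol calls these animals wild type. Progenitors were sorted by flow cytometry with a gate that the labels do not describe, and neither the doses nor the interval between treatment and sorting is given in the sources used here. Cre line, inducing agent and cohort go together, so their shares in any difference below cannot be told apart.

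PolyIC is a synthetic double-stranded RNA. It is sensed as viral RNA and makes cells release type I interferon, which acts through the receptor chains Ifnar1 and Ifnar2 and transcription factors such as Stat2 and Irf9 on genes that carry an interferon-stimulated response element. Mx1 is such a gene, and in Mx1Cre mice its promoter drives the recombinase, so that polyIC switches Cre on in blood cells and in other interferon-responsive cells. CreERT2 is held in the cytoplasm by a mutated estrogen receptor domain until tamoxifen binds it. Interferon is known to drive dormant blood stem cells into the cell cycle.

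The 8 libraries held between 8257908 and 14948256 counts. Kat7 (Entrez 217127, chromosome 11, 95271853 to 95310246 on mm10) stood at 39.1, 70.8, 63.5 and 66.6 CPM (read counts scaled to library size with TMM factors and a common total) in Mx1Cre controls 1 to 4, against 75.6, 67.1, 66.5 and 69.1 CPM in CreER controls 1 to 4, a log2 fold change of -0.21 ± 0.27 (SE; edgeR adjusted p = 0.595). Sex-linked genes fitted the sex label in all 8 libraries. Granulocyte-monocyte progenitor genes led the sort markers: the 11 progenitor markers summed to 35300 to 37920 CPM in Mx1Cre controls and to 15320 to 26870 CPM in CreER controls, while the 4 reticulocyte markers summed to at most 38.3 CPM in any library. Mx1Cre control 1 stood apart. Its counts fell with gene length, by a slope of -0.361 log2 CPM per doubling of exon length, where the other 3 Mx1Cre controls had slopes between -0.0542 and 0.0428 and the CreER controls between 0.0238 and 0.145. Ribosomal protein genes summed to 37380 CPM in that library, against 14910 to 19260 CPM in the other Mx1Cre controls and 12010 to 15090 CPM in CreER controls. Markers of mature neutrophils summed to 1744, 1128, 4423 and 14150 CPM in Mx1Cre controls 1 to 4 and to between 272 and 622 CPM in CreER controls. The fit was repeated without Mx1Cre control 1 and, as a choice made after seeing the data, without Mx1Cre controls 3 and 4, and calls of named genes that these fits ended or added are given beside the gene.

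**Figure D1:**
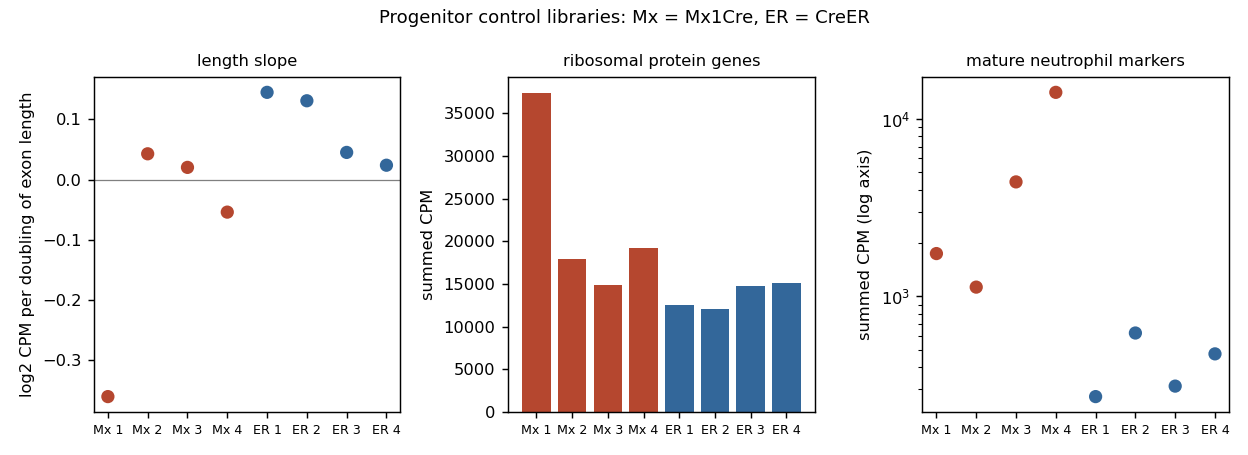
Each of the 8 progenitor control libraries is 1 point or bar, Mx1Cre controls on the left of each panel and CreER controls on the right. The panels show the slope of log2 CPM on doublings of exon length, the summed CPM of 53 ribosomal protein genes and, on a log axis, the summed CPM of 7 mature neutrophil markers; Mx1Cre control 1 stands out in the first 2 panels and Mx1Cre control 4, at 14150 CPM, in the third.

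Interferon-stimulated genes, p53 target genes and megakaryocyte genes were lower in Mx1Cre controls than in CreER controls, and monocyte, neutrophil granule and ribosomal protein genes were higher. In all 3458 genes were called (25.3% of those tested; edgeR's quasi-likelihood test with Benjamini-Hochberg adjustment at 0.05), 1959 higher (14.3%) and 1499 lower (10.9%) in Mx1Cre controls. The median log2 fold change was 0.02 over all genes tested, and the median size of a called change was 0.94. By more than 3 on the log2 scale, 90 genes were called higher and 137 lower. The 8 libraries fitted without the knockout libraries gave 2297 calls, and a test against a fold of 1.5 gave 981.

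**Figure D2:**
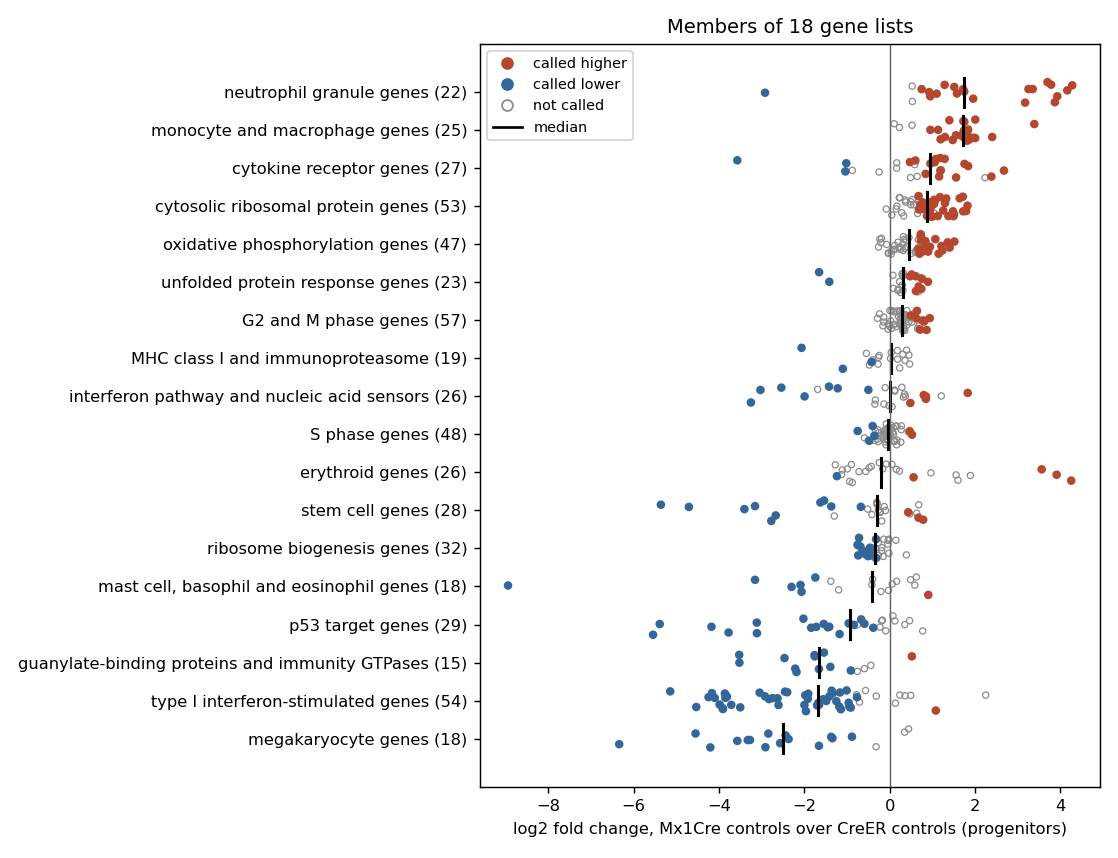
Each point is 1 gene of a list, placed by its log2 fold change of Mx1Cre over CreER progenitor controls; filled points were called (red higher, blue lower), open points were not, black bars are list medians, and the number of genes tested is given after each name. Medians run from 1.73 for monocyte and neutrophil genes to -2.50 for megakaryocyte genes. The point furthest left is Cma1, which had no count in Mx1Cre controls, so that its fitted value is no bound.

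Interferon-stimulated genes were mostly lower: 44 of the 54 tested were lower in Mx1Cre controls, 1 was higher and 9 were not called, with a median log2 fold change of -1.69 against 0.02 over all genes. Mx1 itself (Entrez 17857, chromosome 16, 97447035 to 97462906), whose promoter drives the Cre of these mice, stood at 2.3, 5.37, 3.55 and 3.51 CPM in Mx1Cre controls and at 76.3, 26.7, 70.2 and 47.7 CPM in CreER controls. Every Mx1Cre library was below every CreER library, and the log2 fold change was -3.91 ± 0.32 (edgeR adjusted p = 3.47e-06), a 15-fold lower level. Ifit1, which binds viral RNA, had 2.67, 2.23, 0.979 and 3.33 CPM in Mx1Cre controls, against 130, 48.4, 102 and 53.7 CPM in CreER controls. Its log2 fold change of -5.14 ± 0.48 (edgeR adjusted p = 6.72e-06) was the lowest of the list. Isg15, a ubiquitin-like modifier, and Usp18, the protease that removes it and damps receptor signalling, had log2 fold changes of -3.81 ± 0.42 and -4.10 ± 0.37 (edgeR adjusted p at most 2.58e-05). The antiviral enzyme genes Rsad2, Oas2 and Oasl2 had log2 fold changes of -4.53, -3.92 and -3.05, and Irf7, the factor that amplifies interferon production, of -3.86 (edgeR adjusted p at most 0.000297). Stat2 and Irf9, transcription factors that carry the signal, fell too, with log2 fold changes of -0.91 ± 0.21 and -0.77 ± 0.14 (edgeR adjusted p at most 0.00606).

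Within the CreER controls the interferon-stimulated genes varied together. Libraries 1 and 3 had the higher values of Mx1, Ifit1 and Isg15 and libraries 2 and 4 the lower ones, and the summed level of the list was 7957, 4941, 7816 and 5719 CPM in CreER controls 1 to 4, against 2848 to 3889 CPM in Mx1Cre controls. The lowest CreER library thus remained above the highest Mx1Cre library. Among the 9 genes not called were Ly6a, which encodes Sca-1, with 3.19, 2.56, 2.82 and 3.69 CPM in Mx1Cre controls and 6.03, 4.99, 4.7 and 4.31 CPM in CreER controls (log2 fold change -0.71 ± 0.28; edgeR adjusted p = 0.0737, and 0.047 by DESeq2), and Ly6e, a related surface protein gene, at 1122 to 1583 CPM in Mx1Cre controls and 908 to 1472 CPM in CreER controls. The 1 gene called higher was Ifi209, a member of the interferon-inducible DNA sensor family, with a log2 fold change of 1.08 ± 0.25 (edgeR adjusted p = 0.00523). The chemokine gene Cxcl10 was at most 0.99 CPM in Mx1Cre controls and between 8.36 and 33.7 CPM in CreER controls (log2 fold change -5.12 ± 0.54; edgeR adjusted p = 1.68e-05).

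Receptors and sensors did not move as 1 group: of 26 genes of the interferon pathway and of nucleic acid sensing, 7 were lower and 5 higher in Mx1Cre controls, with a median of 0.02. The cytoplasmic RNA sensor genes fell. Dhx58, a regulator of RIG-I-like receptors, stood at 14.4, 22.5, 18.5 and 22.5 CPM in Mx1Cre controls and at 134, 86.4, 134 and 98.2 CPM in CreER controls (log2 fold change -2.54 ± 0.18; edgeR adjusted p = 1.49e-06), with no overlap between the groups. Ddx58, which encodes RIG-I, Ifih1, which encodes MDA5, and Zbp1, a sensor of Z-form nucleic acid, had log2 fold changes of -3.03 ± 0.28, -2.0 ± 0.21 and -3.25 ± 0.42 (edgeR adjusted p at most 9.83e-05). The receptor chain genes went the other way. Ifnar2 had 105, 130, 110 and 143 CPM in Mx1Cre controls and 59.7, 72.5, 80.3 and 68.3 CPM in CreER controls (log2 fold change 0.80 ± 0.12; edgeR adjusted p = 0.000293). The interferon gamma receptor genes Ifngr1 and Ifngr2 rose by 0.48 ± 0.11 and 0.85 ± 0.19 and the adaptor gene Sting1 by 0.85 ± 0.17 on the log2 scale (edgeR adjusted p at most 0.00564), while Ifnar1 (0.35 ± 0.13; edgeR adjusted p = 0.0644), Jak1 and Tyk2 were not called. Ifnar1 was called higher without Mx1Cre control 1 (edgeR adjusted p = 0.00564).

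Immunity GTPases, which attack the membranes around intracellular pathogens, were also lower: 11 of 15 guanylate-binding protein and immunity-related GTPase genes fell and 1 rose, with a median of -1.66. Irgm1 (Entrez 15944, chromosome 11, 48865245 to 48871420) stood at 88.9, 62.8, 44.6 and 65 CPM in Mx1Cre controls and at 286, 158, 254 and 189 CPM in CreER controls (log2 fold change -1.76 ± 0.25; edgeR adjusted p = 0.000221). Gbp2, Gbp7 and Tgtp2 had log2 fold changes of -1.76, -1.66 and -2.21 (edgeR adjusted p at most 0.00268). Gbp3 was the exception, with 139, 130, 107 and 127 CPM in Mx1Cre controls and 93.6, 65, 114 and 77.8 CPM in CreER controls, groups that overlap (log2 fold change 0.52 ± 0.15; edgeR adjusted p = 0.0173). The call for Gbp3 was lost without CreER control 2 (edgeR adjusted p = 0.0607) and without CreER control 4 (0.0567). Members of these families are similar in sequence, and the counting of reads shared between them is not described. Antigen presentation moved little: of 19 MHC class I and immunoproteasome genes 3 fell and 0 rose. These 3 were the nonclassical H2-T24 (log2 fold change -2.07), Nlrc5, the transactivator of class I genes (-1.10), and the peptide transporter gene Tap1 (-0.43; edgeR adjusted p = 0.0487). The Tap1 call was lost without Mx1Cre control 3 or 4 or any 1 of the CreER controls (edgeR adjusted p = 0.0506 to 0.145), and without Mx1Cre controls 3 and 4 its log2 fold change was -0.24 (edgeR adjusted p = 0.322). The classical chain gene H2-K1 had 1190 to 2178 CPM in Mx1Cre controls and 1423 to 1685 CPM in CreER controls.

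Promoter sequences of these genes are shown because the interferon-stimulated response element can be read in them. RefSeq promoters (250 bases before to 50 after the start site, GRCm38.p6) were found for 10148 of the genes tested. The motif searched was GAAA, any 2 bases and GAAA again, on both strands and with overlapping matches allowed, and 386 of these promoters, or 3.8%, held it. It was present in 20 of 40 promoters of the interferon-stimulated list (50.0%) and in 10 of 11 of the GTPase list (90.9%). Among all called genes it was found in 7.78% of the promoters of genes lower in Mx1Cre controls, in 3.87% of those of genes higher and in 3.19% of those not called. A match is a string of letters and not a measured binding site. Each promoter is given 5′ to 3′ on the strand of its gene, in lower case with the motif matches in capitals. In Ifit1 the 2 matches are on the opposite strand and read as TTTC, 2 bases and TTTC. In Isg15 the 3 matches begin 78, 72 and 66 bases before the start site and run into each other. Irgm1 and Gbp3, which moved in opposite directions, each hold 2 overlapping matches, beginning 30 and 24 bases before the start site in Irgm1 and 45 and 39 bases before it in Gbp3.
Ifit1 (chr19:34640639-34640938, plus strand): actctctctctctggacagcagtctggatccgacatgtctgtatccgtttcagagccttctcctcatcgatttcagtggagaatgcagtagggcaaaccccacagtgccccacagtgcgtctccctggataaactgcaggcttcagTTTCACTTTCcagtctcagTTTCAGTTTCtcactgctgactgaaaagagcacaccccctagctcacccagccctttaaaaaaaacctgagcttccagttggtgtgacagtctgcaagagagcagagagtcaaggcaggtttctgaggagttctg
Isg15 (chr4:156200769-156201068, minus strand): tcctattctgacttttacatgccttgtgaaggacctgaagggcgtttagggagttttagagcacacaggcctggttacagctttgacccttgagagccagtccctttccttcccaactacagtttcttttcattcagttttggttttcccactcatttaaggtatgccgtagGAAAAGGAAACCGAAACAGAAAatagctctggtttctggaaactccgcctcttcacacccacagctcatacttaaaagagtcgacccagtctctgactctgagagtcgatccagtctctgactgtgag
Irgm1 (chr11:48871371-48871670, minus strand): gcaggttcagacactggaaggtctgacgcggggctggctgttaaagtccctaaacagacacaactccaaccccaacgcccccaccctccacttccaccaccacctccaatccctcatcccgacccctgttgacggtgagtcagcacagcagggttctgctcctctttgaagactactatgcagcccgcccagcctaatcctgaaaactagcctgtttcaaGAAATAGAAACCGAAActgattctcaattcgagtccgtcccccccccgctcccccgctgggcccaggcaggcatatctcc
Gbp3 (chr3:142559794-142560093, plus strand): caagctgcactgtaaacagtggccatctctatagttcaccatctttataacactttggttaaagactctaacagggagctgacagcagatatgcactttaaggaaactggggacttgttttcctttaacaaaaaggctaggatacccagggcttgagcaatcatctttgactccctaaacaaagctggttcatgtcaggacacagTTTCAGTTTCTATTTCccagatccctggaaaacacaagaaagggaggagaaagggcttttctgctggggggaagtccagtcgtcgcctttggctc

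Targets of p53, the transcription factor that answers DNA damage, were also mostly lower: 19 of 29 were lower in Mx1Cre controls and 0 were higher, with a median of -0.94. Every Mx1Cre library was below every CreER library for these 19 of the 29 genes tested, against 13.5% of all genes tested. Cdkn1a (Entrez 12575, chromosome 17, 29090979 to 29100722), which encodes the cell cycle inhibitor p21, stood at 5.78, 5.2, 9.67 and 11.8 CPM in Mx1Cre controls and at 68.6, 72.5, 65.8 and 72.6 CPM in CreER controls. The CreER values were close to each other, and the log2 fold change was -3.12 ± 0.26 (edgeR adjusted p = 3.47e-06), an 8.67-fold lower level. Ccng1, a cyclin G gene and a classical p53 target, had 90.7, 87.5, 88.5 and 95.6 CPM in Mx1Cre controls, against 236, 282, 219 and 254 CPM in CreER controls (log2 fold change -1.45 ± 0.10; edgeR adjusted p = 1.49e-06). Phlda3, an inhibitor of Akt, had 3.7, 1.24, 0.612 and 2.07 CPM in Mx1Cre controls and 35, 39.3, 30 and 39.6 CPM in CreER controls (log2 fold change -4.18 ± 0.35; edgeR adjusted p = 3.67e-06). In each of these genes every CreER library was far above every Mx1Cre library.

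Targets with different roles fell alike. Zmat3, an RNA-binding protein gene, had a log2 fold change of -3.11 ± 0.28, and the death receptor genes Tnfrsf10b and Eda2r of -1.84 ± 0.28 and -5.39 ± 0.55 (edgeR adjusted p at most 0.000333). Plk2, a polo-like kinase gene, was at or below 0.63 CPM in all 4 Mx1Cre libraries and between 5.99 and 11 CPM in CreER controls. Bbc3, which encodes the death effector PUMA, Aen, a nuclease gene, and Mdm2, the ligase that limits p53, had log2 fold changes of -1.18 ± 0.22, -0.94 ± 0.11 and -0.59 ± 0.12 (edgeR adjusted p at most 0.00291). Trp53, the gene of p53 itself, had 190, 203, 198 and 211 CPM in Mx1Cre controls and 293, 260, 244 and 249 CPM in CreER controls (log2 fold change -0.39 ± 0.10; edgeR adjusted p = 0.0104). The death genes Bax and Pmaip1 were not called. Bax stood at 140 CPM in Mx1Cre control 1 and at 61 to 73.5 CPM in the other Mx1Cre controls, against 85.6 to 104 CPM in CreER controls, and without Mx1Cre control 1 it was called lower (edgeR adjusted p = 0.0228).

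**Figure D3:**
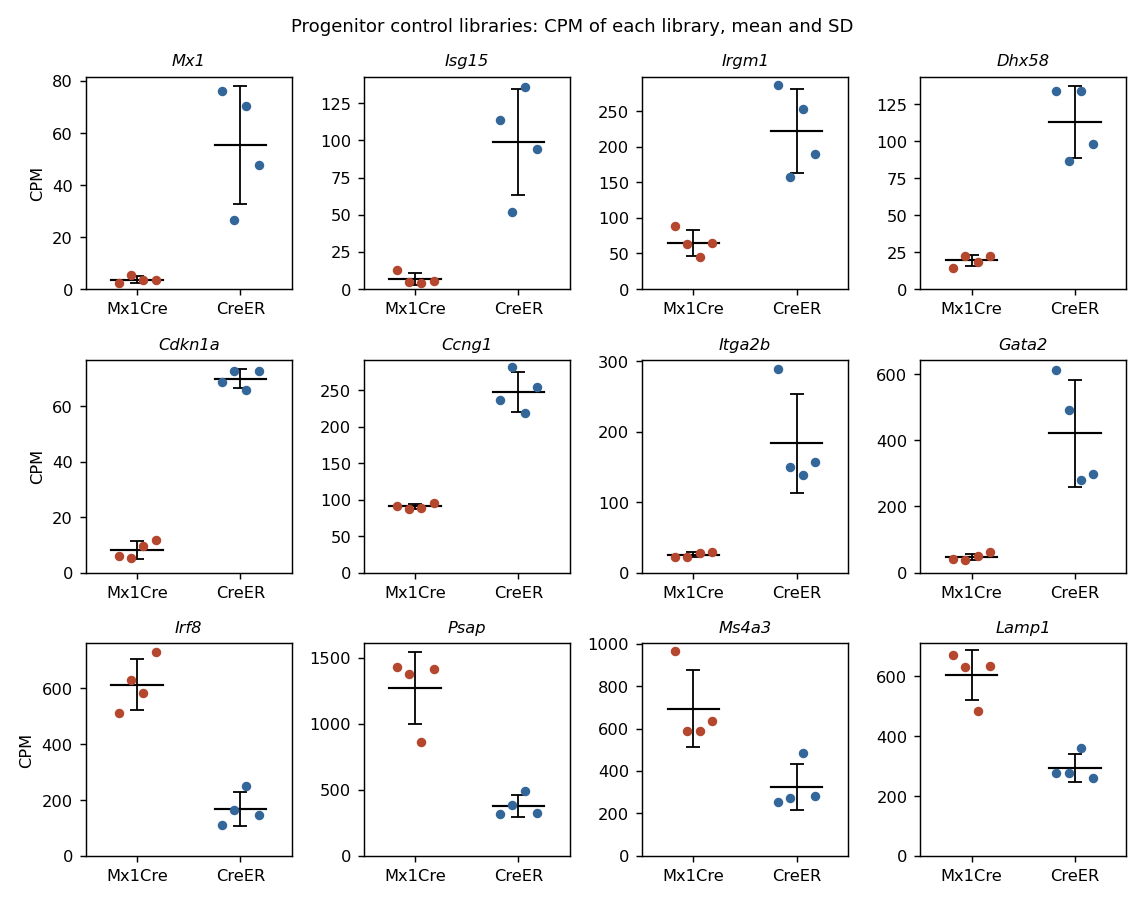
CPM of 12 genes in each progenitor control library, Mx1Cre on the left and CreER on the right of each panel, with the mean and SD (n = 4 each) in black on axes that start at 0. For Mx1, Isg15, Irgm1, Dhx58, Cdkn1a, Ccng1, Itga2b and Gata2 all 4 Mx1Cre libraries lie below the CreER libraries, and for Irf8, Psap, Ms4a3 and Lamp1 above them.

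Megakaryocyte genes, those of the cells that shed platelets, had the lowest median of the 34 gene lists, -2.50: of 18 tested, 15 were lower in Mx1Cre controls and 0 higher. Itga2b (Entrez 16399, chromosome 11, 102453297 to 102469883), the integrin chain CD41, stood at 22.2, 22.4, 27.9 and 29.6 CPM in Mx1Cre controls and at 288, 149, 138 and 157 CPM in CreER controls (log2 fold change -2.85 ± 0.27; edgeR adjusted p = 8.05e-06). The Mx1Cre libraries were close to each other, and CreER control 1 was far above the other CreER libraries. Pf4, platelet factor 4, had 2.59, 0.413, 0.979 and 1.44 CPM in Mx1Cre controls and 16.5, 11.3, 9.83 and 18.2 CPM in CreER controls (log2 fold change -3.33 ± 0.40; edgeR adjusted p = 5.91e-05). F2r, the thrombin receptor gene, had a log2 fold change of -4.57 ± 0.34 and its relative F2rl2 of -6.34 ± 0.86 (edgeR adjusted p at most 0.000142), and F2r, which is outside the list, was among the 10 lowest p of the comparison. Rab27b, of platelet granule release, and the von Willebrand factor gene Vwf had log2 fold changes of -4.55 ± 0.38 and -2.44 ± 0.41 (edgeR adjusted p at most 0.00072). Itgb3, the partner chain of Itga2b, was not called, with 6.82 to 25.7 CPM in Mx1Cre controls and 18.5 to 27 CPM in CreER controls, and neither was the transcription factor gene Fli1. Without Mx1Cre control 1, Fli1 was called higher (log2 fold change 0.49; edgeR adjusted p = 0.0107), against the direction of the called members of the list. In sorted bulk RNA, fewer cells of a type and less RNA of that type per cell cannot be told apart.

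The promoter of the glycoprotein gene Gp5 (log2 fold change -2.37 ± 0.31; edgeR adjusted p = 0.000116) is shown for the GATA motif, AGATAA or TGATAA on both strands, which 5 of 12 megakaryocyte promoters held (41.7%), against 13% of all 10148 promoters. Of the GTPase list, 5 of 11 promoters held it as well (45.5%). In Gp5 the 2 matches begin 93 and 77 bases before the start site. Gata2, which encodes a factor that reads this motif, is described with the stem cell genes below.
Gp5 (chr16:30310732-30311031, minus strand): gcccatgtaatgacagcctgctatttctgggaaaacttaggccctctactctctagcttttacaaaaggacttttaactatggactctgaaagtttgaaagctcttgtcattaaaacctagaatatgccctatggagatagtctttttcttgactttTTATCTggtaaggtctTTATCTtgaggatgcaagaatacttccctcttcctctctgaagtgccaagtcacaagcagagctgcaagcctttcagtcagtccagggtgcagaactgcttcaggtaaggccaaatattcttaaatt

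Stem cell genes were lower in part. Of 28 tested, 10 fell and 3 rose in Mx1Cre controls, with a median of -0.30 that was -0.62 without Mx1Cre controls 3 and 4. Gata2 (Entrez 14461, chromosome 6, 88193891 to 88207032) had 40.2, 38.2, 49.7 and 60.5 CPM in Mx1Cre controls and 613, 492, 278 and 298 CPM in CreER controls, an 8.92-fold lower level with no overlap (log2 fold change -3.16 ± 0.35; edgeR adjusted p = 2.58e-05). Angpt1, the ligand of the receptor Tek, had 17.9, 18.8, 18.9 and 21 CPM in Mx1Cre controls and 182, 129, 95.5 and 118 CPM in CreER controls (log2 fold change -2.78 ± 0.32; edgeR adjusted p = 3.22e-05). Slamf1, which encodes the stem cell surface protein CD150, was at most 0.49 CPM in Mx1Cre controls and between 6.33 and 16.2 CPM in CreER controls (log2 fold change -5.36 ± 0.68; edgeR adjusted p = 8.44e-05). Tal1, a factor shared by stem, erythroid and megakaryocyte cells, and Meis1, a homeobox factor, had log2 fold changes of -1.37 ± 0.21 and -1.62 ± 0.33 (edgeR adjusted p at most 0.00256). Several of these genes are also expressed in megakaryocyte and mast cell progenitors. Hoxa9 was not called, at 15.3 to 20.8 CPM in Mx1Cre controls and 14.6 to 21.9 CPM in CreER controls, nor was the receptor gene Kit, at 237 to 331 CPM in Mx1Cre controls and 315 to 417 CPM in CreER controls. The progenitor surface gene Cd34 rose, with 266 to 350 CPM in Mx1Cre controls and 137 to 226 CPM in CreER controls (log2 fold change 0.78 ± 0.20; edgeR adjusted p = 0.00884), and lost the call without Mx1Cre controls 3 and 4 (edgeR adjusted p = 0.0744).

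Of 18 genes of mast cells, basophils and eosinophils 6 fell, 1 rose and 11 were not called, and their summed level overlapped between the groups, at 1390 to 2353 CPM in Mx1Cre controls and 1224 to 2441 CPM in CreER controls. The list median of -0.41 ranged from -0.78 without CreER control 4 to -0.04 without CreER control 3, and was 0.10 with limma-voom. Cma1, a mast cell chymase gene, had no count in the 4 Mx1Cre libraries and 7.2, 8.47, 2.22 and 3.21 CPM in CreER controls, which puts it at least 78.9-fold lower against a floor of 3 counts over the group. The interleukin-33 receptor gene Il1rl1 had 24.7, 16.9, 11.8 and 11.2 CPM in Mx1Cre controls and 101, 91.9, 55.8 and 71 CPM in CreER controls (log2 fold change -2.30 ± 0.30; edgeR adjusted p = 0.000107), and the carboxypeptidase gene Cpa3 fell by 1.74 ± 0.35 (edgeR adjusted p = 0.00199). The eosinophil granule genes Prg2 and Epx varied too much within the groups to be called: Prg2 stood at 228, 163, 43.9 and 61.5 CPM in Mx1Cre controls and at 267, 21.8, 205 and 13.8 CPM in CreER controls. In those CreER libraries the high values were in 1 and 3, the same libraries that were high in interferon-stimulated genes.

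Monocyte and macrophage genes were higher in Mx1Cre controls: 22 of 25 rose and 0 fell, with a median of 1.73. Irf8 (Entrez 15900, chromosome 8, 120736358 to 120756694), which steers cells to monocytes and dendritic cells, had 512, 631, 582 and 730 CPM in Mx1Cre controls and 109, 165, 252 and 147 CPM in CreER controls (log2 fold change 1.87 ± 0.24; edgeR adjusted p = 9.12e-05). The groups did not overlap. Csf1r, the receptor gene for macrophage colony-stimulating factor, had 141, 260, 205 and 266 CPM in Mx1Cre controls and 37.7, 59.5, 91.7 and 54.9 CPM in CreER controls (log2 fold change 1.84 ± 0.26; edgeR adjusted p = 0.00019). Psap (Entrez 19156, chromosome 10, 60277628 to 60302600), the precursor of lysosomal saposins, had 1429, 1378, 862 and 1418 CPM in Mx1Cre controls and 314, 388, 491 and 321 CPM in CreER controls, a 3.36-fold higher level (log2 fold change 1.75 ± 0.18; edgeR adjusted p = 1.44e-05). F13a1, Ms4a6c and Fcgr3, genes of early monocytes and their Fc receptor, rose by 1.73, 1.73 and 1.55, and the chemokine receptor gene Ccr2 by 0.95 on the log2 scale (edgeR adjusted p at most 0.00166). Klf4, a factor of the monocyte lineage, rose by 2.40 ± 0.36 on the log2 scale (edgeR adjusted p = 0.000313). Cx3cr1, of more mature monocytes, was not called, with 14.2 to 23.1 CPM in Mx1Cre controls and 14.5 to 20.4 CPM in CreER controls. In CreER controls, library 3 was the highest for Irf8, Csf1r, Psap, F13a1 and Ms4a6c.

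Outside the lists, Smpdl3a, Pld4 and Lamp1 were each called higher. Smpdl3a, a lysosomal phosphodiesterase gene, had 134, 131, 83.7 and 127 CPM in Mx1Cre controls and 28.8, 29.5, 36.2 and 22.3 CPM in CreER controls (log2 fold change 2.02 ± 0.18; edgeR adjusted p = 4.62e-06). Pld4, a nuclease of the endolysosome, rose by 2.32 ± 0.22 and Lamp1, the gene of a major lysosomal membrane protein, by 1.04 ± 0.12 on the log2 scale (edgeR adjusted p at most 3.95e-05). For all 3 genes each Mx1Cre library was above each CreER library.

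Neutrophil granule genes rose too, 19 of 22 with 1 lower and a median of 1.73. Genes of the primary granules, which are made in progenitors, were higher in each Mx1Cre library than in any CreER library. Prtn3, proteinase 3 (Entrez 19152, chromosome 10, 79879667 to 79883174), had 7979, 4857, 5562 and 5920 CPM in Mx1Cre controls and 1460, 1727, 3148 and 1829 CPM in CreER controls (log2 fold change 1.57 ± 0.27; edgeR adjusted p = 0.000863). Elane, Ctsg and Mpo, of the same granules, rose by 1.51 ± 0.32, 0.95 ± 0.25 and 0.93 ± 0.23, and Ms4a3, of granulocyte-monocyte progenitors, by 1.10 ± 0.26 on the log2 scale (edgeR adjusted p at most 0.0107). Genes of later stages varied by library. S100a8, a calgranulin gene, had 486, 243, 786 and 2537 CPM in Mx1Cre controls and 58.1, 117, 112 and 138 CPM in CreER controls (log2 fold change 3.25 ± 0.69; edgeR adjusted p = 0.00326). Ltf, lactoferrin of the secondary granules, had 200, 169, 660 and 2053 CPM in Mx1Cre controls and 48, 95.4, 30.5 and 50.3 CPM in CreER controls (log2 fold change 3.78 ± 0.94; edgeR adjusted p = 0.00852). All 7 mature neutrophil markers rose, and Mx1Cre controls 3 and 4 held most of their counts. Without these 2 libraries 7 of the 22 granule genes were called higher, and S100a8 and Ltf were not (edgeR adjusted p = 0.0529 and 0.164). The part of mature neutrophils in the sorted fraction in these changes was not tested. The transcription factor genes Gfi1 and Cebpe were not called. Cebpa rose by 0.75 ± 0.17 on the log2 scale (edgeR adjusted p = 0.00399), a call that was lost without Mx1Cre controls 3 and 4 (edgeR adjusted p = 0.0525).

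Cytokine receptor genes rose in 16 of 27 cases and fell in 3, with a median of 0.95. The receptor chains of interleukin-6 and interleukin-10, Il6ra and Il10ra, rose by 1.56 ± 0.39 and 1.75 ± 0.26, that of granulocyte-macrophage colony-stimulating factor, Csf2ra, by 1.16 ± 0.27, and the tumor necrosis factor receptor gene Tnfrsf1a by 1.05 ± 0.17 on the log2 scale (edgeR adjusted p at most 0.0091). Cxcr4, the receptor that holds blood progenitors in the marrow, had 171, 207, 262 and 331 CPM in Mx1Cre controls and 96, 94.3, 147 and 89.1 CPM in CreER controls (log2 fold change 1.19 ± 0.20; edgeR adjusted p = 0.000809). Among the falls were the transforming growth factor receptor gene Tgfbr2, whose call was lost without CreER control 1 (edgeR adjusted p = 0.0549), and Il2rg, the common gamma chain, with 27.5, 30.8, 30.4 and 25.6 CPM in Mx1Cre controls and 62.2, 62.5, 49.4 and 57.1 CPM in CreER controls (log2 fold change -1.02 ± 0.13; edgeR adjusted p = 9.66e-05). Without Mx1Cre controls 3 and 4 the count of higher receptor genes was 8 and the median 0.59, and the calls for Il6ra and Csf2ra were lost (edgeR adjusted p = 0.0879 and 0.0716).

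Erythroid genes varied widely among the Mx1Cre libraries. Of 26 tested 4 rose, a share near the 14.3% of all genes that rose, and 1 fell, against 10.9% of all genes. Gata1, the master erythroid factor, had 121, 44.8, 12.1 and 19.3 CPM in Mx1Cre controls 1 to 4 and 139, 136, 87.6 and 116 CPM in CreER controls (log2 fold change -1.27 ± 0.48; edgeR adjusted p = 0.0645). Klf1 and Car1 had the same order among the Mx1Cre libraries, with Klf1 at 182, 80.6, 26.7 and 26.3 CPM and Car1 at 693, 274, 96 and 111 CPM, against 116 to 171 CPM for Klf1 and 486 to 783 CPM for Car1 in CreER controls. Mx1Cre control 1 lay within or close to the CreER range for all 3 genes. Without it 10 of the 26 genes were called lower, among them Klf1 (edgeR adjusted p = 0.00105), Gata1 (0.000338) and Car1 (0.000409), in a fit that called 1759 genes lower in all. With no library left out, Gata1 and Car1 were called lower by DESeq2 (adjusted p = 0.024 and 0.0374) and by limma-voom (0.0129 and 0.0171). Klf1 was called lower by limma-voom (adjusted p = 0.0342). All 3 genes were called lower with the length trend removed (edgeR adjusted p = 0.00986 to 0.0389). The erythroid median of -0.20 was -0.97 without Mx1Cre control 1 and 0.39 without Mx1Cre controls 3 and 4. The globin gene Hba-a1 was called higher on the strength of that library, with 28.4, 3.63, 1.22 and 1.17 CPM in Mx1Cre controls and 0.145 to 1.41 CPM in CreER controls (edgeR adjusted p = 0.0112, and 0.0891 without it). The transferrin receptor gene Tfrc rose by 0.56 ± 0.14 on the log2 scale (edgeR adjusted p = 0.00816).

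Lymphoid and dendritic genes had calls in both directions. Of 13 lymphoid priming genes 4 rose and 2 fell, and of 8 B cell genes 3 rose and 2 fell. Of 12 dendritic cell genes 1 rose and 2 fell, and of 10 T and NK cell genes 1 rose and 3 fell. Of all genes tested 14.3% rose and 10.9% fell. Lat, an adaptor of T cell, mast cell and platelet receptors, had 3.33, 1.24, 1.1 and 1.8 CPM in Mx1Cre controls and 34.2, 26.6, 20.1 and 22.7 CPM in CreER controls (log2 fold change -3.75 ± 0.39; edgeR adjusted p = 1.33e-05). The granzyme gene Gzmb fell by 3.76 ± 0.58 on the log2 scale (edgeR adjusted p = 0.000358). The 8 markers of T and NK cells went the other way in sum, with 266.8 to 448.3 CPM in Mx1Cre controls and 154.8 to 243.5 CPM in CreER controls. Only 2 of these 8 markers passed the filter, and 1 was called higher. The summed level of the list of 20 T and NK cell genes overlapped between the groups, at 292.3 to 459.5 CPM in Mx1Cre controls and 232.9 to 306.3 CPM in CreER controls. The collagen gene Col1a2 was at most 0.445 CPM in Mx1Cre controls and had 18.8, 23, 7.61 and 6.9 CPM in CreER controls. Markers of endothelial and stromal cells summed to 0.445 to 0.743 CPM in Mx1Cre controls and to 9.48 to 25.6 CPM in CreER controls, of which Col1a2 was the larger part. Col1a1, of the same collagen, was not called. In the wider list of 16 endothelial and stromal genes, 7 were tested, of which 1 rose and 2 fell. The summed level of that list overlapped between the groups, at 91.07 to 143.7 CPM in Mx1Cre controls and 106.1 to 157.5 CPM in CreER controls.

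The largest single falls included genes that were all but silent in the Mx1Cre controls. Tnfsf4 (Entrez 22164, chromosome 1, 161395438 to 161418206), the ligand of the costimulatory receptor OX40, had no count in the 4 Mx1Cre libraries and 12, 9.99, 4.36 and 7.6 CPM in CreER controls, which puts it at least 127-fold lower against the same floor of 3 counts. Robo3, a guidance receptor gene, was at most 0.27 CPM in Mx1Cre controls and between 5.99 and 12.6 CPM in CreER controls (log2 fold change -5.93 ± 0.52; edgeR adjusted p = 4.62e-06). Egr1, an immediate early factor, had 1.63, 0.991, 0.734 and 1.26 CPM in Mx1Cre controls and 83.8, 40.9, 19.2 and 32.1 CPM in CreER controls (log2 fold change -5.21 ± 0.52; edgeR adjusted p = 1.13e-05). Spns2, the transporter that exports sphingosine 1-phosphate, fell by 3.11 ± 0.27 on the log2 scale (edgeR adjusted p = 4.62e-06). At the other end, the fibronectin gene Fn1 had 28.3, 92.1, 168 and 261 CPM in Mx1Cre controls and 8.8, 11.8, 5.47 and 2.82 CPM in CreER controls (log2 fold change 4.26 ± 0.57; edgeR adjusted p = 0.00014), and Retnlg, a neutrophil resistin gene, rose by 4.85 ± 1.02 on the log2 scale (edgeR adjusted p = 0.00289). Without Mx1Cre controls 3 and 4, the libraries richest in neutrophil markers, Retnlg had a log2 fold change of 2.32 and was not called (edgeR adjusted p = 0.0579).

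Of 19 cell cycle regulators 5 fell, 2 rose and 12 were not called, with a median of -0.26. The cyclin D genes Ccnd1 and Ccnd2 had log2 fold changes of -1.80 ± 0.28 and -1.39 ± 0.23, and the proto-oncogenes Mycn and Myc of -4.14 ± 0.66 and -0.60 ± 0.14 (edgeR adjusted p at most 0.00463). Mycn was at most 1.22 CPM in Mx1Cre controls and between 10.3 and 20.3 CPM in CreER controls. Of 48 S phase genes 4 fell and 2 rose, a share below that of all genes called. Among the 57 mitotic (G2 and M phase) genes there were 8 rises and 0 falls, a share close to the 14.3% of all genes that rose. They included Racgap1 (0.70 ± 0.14) and Aurkb (0.64 ± 0.17), which act in cell division (edgeR adjusted p at most 0.0131), and the call for Aurkb was lost without Mx1Cre controls 3 and 4 (edgeR adjusted p = 0.115). The count of rises was 3 without CreER control 1 and 14 without CreER control 4.

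Ribosomal protein genes and the genes that assemble ribosomes went in opposite directions. Of 53 ribosomal protein genes 34 rose and 0 fell, with a median of 0.88. With the length trend removed 29 of the 53 genes were called higher and the median was 0.41, and without Mx1Cre control 1 27 were called higher and the median was 0.54. Of 32 ribosome biogenesis genes 15 fell and 0 rose, with a median of -0.35, and 24 fell without Mx1Cre control 1. Rrp12 and Utp4, of small subunit assembly, had log2 fold changes of -0.72 ± 0.11 and -0.74 ± 0.12 (edgeR adjusted p at most 0.000442). The 47 respiratory chain and ATP synthase genes had 17 rises and 0 falls, with a median of 0.45, against 14.3% of all genes that rose. Without Mx1Cre control 1 they had 10 rises and a median of 0.076, and with the length trend removed the median was 0.081. Their summed level overlapped between the groups, at 8538 to 15070 CPM in Mx1Cre controls and 8067 to 9506 CPM in CreER controls.

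The same contrast of Cre lines could be read in the knockout progenitors of the study, which came from 8 other mice. There 3233 genes were called (23.6%), 1752 higher (12.8%) and 1481 lower (10.8%) in Mx1Cre knockouts. Of the 1959 genes higher in Mx1Cre controls 1293 were also called higher in Mx1Cre knockouts (66%, and 73.8% of the knockout list), and of the 1499 lower genes 942 were also lower (62.8%, and 63.6% of the knockout list). Only 4 genes were called in opposite directions. The slope on exon length differed between the lines in the knockouts too. It was -0.296 to 0.0147 log2 CPM per doubling in Mx1Cre knockouts, lowest in Mx1Cre knockout 4, and 0.073 to 0.129 in CreER knockouts. The part of this trend in the shared calls was not tested. Of interferon-stimulated genes 46 of 54 were lower in the Mx1Cre knockouts, with a median of -1.73, of p53 targets 18 of 29 with a median of -0.88, and of monocyte genes 21 of 25 were higher with a median of 1.29. Mx1 averaged 2.09 ± 0.421 CPM in Mx1Cre knockouts and 28.8 ± 4.14 CPM in CreER knockouts, and Cdkn1a 14.1 ± 3.67 and 61 ± 9.94 CPM (SD, n = 4 each). Megakaryocyte and mast cell lists had other counts there: 9 of 18 megakaryocyte genes were lower and 2 higher in the Mx1Cre knockouts, with a median of -1.06, and 13 of 18 genes of mast cells, basophils and eosinophils were lower and 2 higher, with a median of -2.29.

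**Figure D4:**
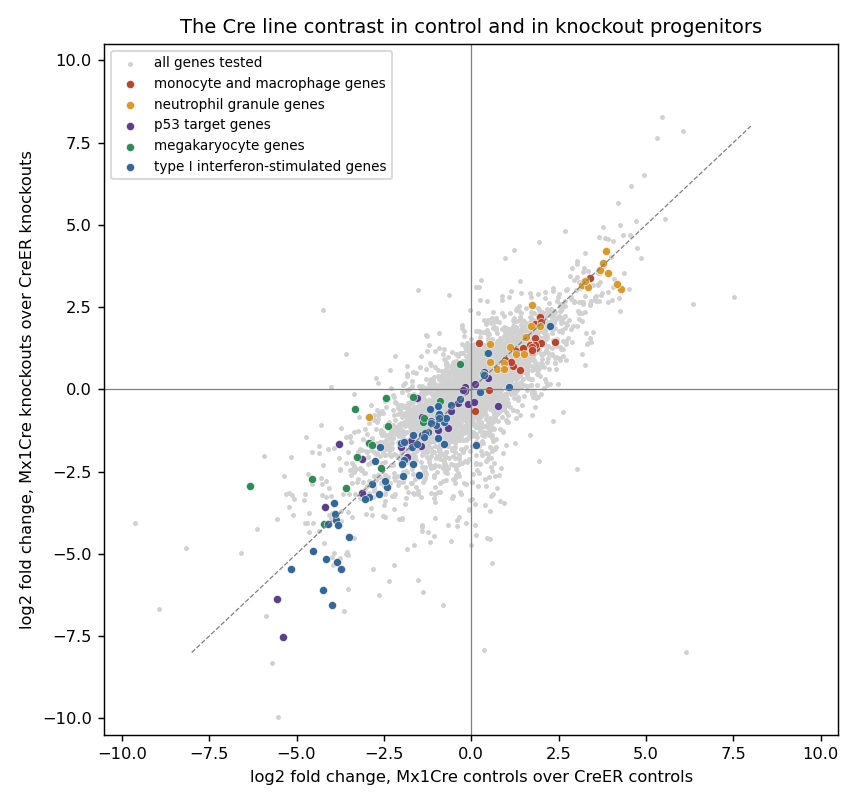
Each point is 1 of the 13692 genes tested, placed by its log2 fold change of Mx1Cre over CreER in control progenitors (x axis) and in knockout progenitors (y axis), with 5 gene lists in color and the line of equality dashed. Interferon-stimulated genes and p53 targets lie along the line at lower left, monocyte and neutrophil genes at upper right, and megakaryocyte genes mostly above the line.

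A test of the difference between the control and the knockout contrast called 41 genes (0.299%), 32 (0.234%) with the higher and 9 (0.0657%) with the lower contrast in controls. Pf4, which fell by 3.33 in controls, had a log2 fold change of -0.60 in knockouts, a difference of -2.73 ± 0.53 (edgeR adjusted p = 0.0374). Robo3 and Parm1, an androgen-responsive membrane protein gene, differed in the same direction by -3.90 and -3.12 (edgeR adjusted p at most 0.0225). The higher contrasts were led by genes that were not called between the controls and were low in Mx1Cre knockouts: Zfp970, a zinc finger gene, had 10.2 to 14.2 CPM in Mx1Cre controls and 9.64 to 14.6 CPM in CreER controls, with a log2 fold change of 0.00 ± 0.20, against -4.73 in the knockouts. Ica1 and Map7d3 differed in the same way, by 3.13 and 8.29, of which Map7d3 had no count in the Mx1Cre knockouts, so that its value is no bound. Eepd1, a nuclease gene of DNA repair that was picked out after its values were seen, was higher in Mx1Cre controls (log2 fold change 1.60 ± 0.21; edgeR adjusted p = 9.82e-05) and had a log2 fold change of -0.03 in the knockouts. Counts of this test were 25 to 60 when single libraries were left out, and 120 by DESeq2.

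LSK cells, the stem and multipotent fraction of the same mice, gave 3054 calls in the contrast of Mx1Cre with CreER controls (21.7%), 1643 higher (11.7%) and 1411 lower (10%). Of their interferon-stimulated genes 49 of 54 were lower with a median of -1.88. The difference between the progenitor and the LSK contrast was called for 160 of 14459 genes (1.11%), 62 (0.429%) with the higher and 98 (0.678%) with the lower contrast in progenitors, and for 571 (3.95%; 245 higher, 1.69%, and 326 lower, 2.25%) with the mouse as a block, since each mouse gave both libraries. For this difference, values and calls of single genes come from the fit without the block. There 8 of the 18 megakaryocyte genes tested in progenitors were called as falling by more in progenitors than in LSK cells. Itga2b had a log2 fold change of -2.85 in progenitors and -0.93 in LSK cells, a difference of -1.90 ± 0.29 (edgeR adjusted p = 0.00112), and in LSK cells it averaged 166 ± 29.6 CPM in Mx1Cre controls and 317 ± 25.7 CPM in CreER controls (SD, n = 4 each). Rab27b and Vwf differed by -3.41 and -2.56, Pf4, at -0.15 in LSK cells, by -3.16, and F2r, outside the megakaryocyte list, by -2.86 (edgeR adjusted p at most 0.00721). Gata2 and Slamf1 differed in the same direction, by -2.01 ± 0.38 and -4.29 ± 0.76 (edgeR adjusted p at most 0.00567).

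Of the p53 targets, 4 were also called as falling by more in progenitors than in LSK cells. Ccng1 differed by -0.74 ± 0.13, Cdkn1a by -1.41 ± 0.30, Psrc1 by -1.02 ± 0.24 and Zmat3 by -1.38 ± 0.32 (edgeR adjusted p at most 0.0313). For Cdkn1a the LSK libraries averaged 15.2 ± 4.77 CPM in Mx1Cre controls and 49.2 ± 1.73 CPM in CreER controls (SD, n = 4 each), a log2 fold change of -1.70. Of the interferon-stimulated list Ly6a was called in this test, with a log2 fold change of -2.29 in LSK cells and -0.71 in progenitors (difference 1.59 ± 0.37; edgeR adjusted p = 0.0291), beside Ifi27l2a (difference 2.43 ± 0.56; edgeR adjusted p = 0.0277). Mx1 had -3.80 in LSK cells and -3.91 in progenitors, a difference of -0.09 ± 0.44. Of the genes higher in Mx1Cre controls, Irf5, an interferon regulatory factor gene, Smpdl3a and the lysosomal amidase gene Naaa rose by more in progenitors, by differences of 1.11 ± 0.27, 0.87 ± 0.22 and 1.12 ± 0.24 (edgeR adjusted p at most 0.0394).

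**Figure D5:**
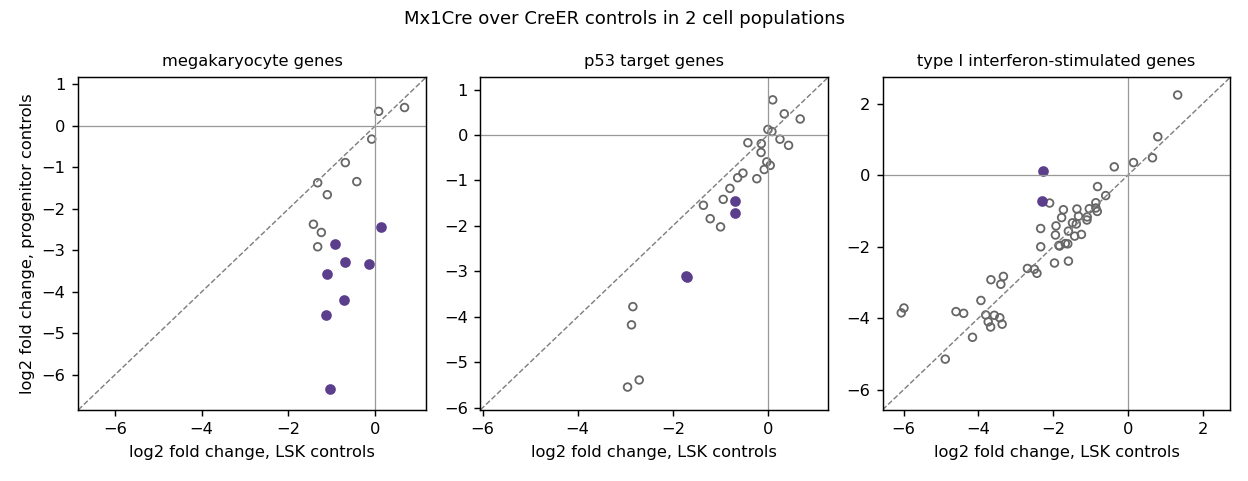
Log2 fold changes of Mx1Cre over CreER controls in LSK cells (x axis) and in progenitors (y axis) for megakaryocyte genes, p53 targets and interferon-stimulated genes, with the line of equality dashed; filled points were called in the test of the difference between the populations. Most megakaryocyte genes lie below the line, as for Itga2b at -0.93 in LSK cells and -2.85 in progenitors, and most interferon-stimulated genes lie near it.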

How the data were processed

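RNA was taken from sorted progenitors, and the labels' protocols name 50 ng of RNA per library, a TruSeq kit and paired-end reads of 80 bases on a NextSeq500. The deposited values are raw counts per gene, made by the authors with featureCounts on mm10 per the submitters' processing notes; no source used here gives the versions, the aligner or the use of strand. Gene symbols came from RefSeq by Entrez ID for 25275 of 27179 genes, and the other 1904 held 3.92% of counts. Groups came from the sample labels. Genes passed a filter of at least 10 counts, scaled to library size, in the smallest group, and a total of 15. One edgeR 4.0.16 quasi-likelihood fit (R 4.3.3) with TMM factors held the 16 progenitor libraries in 4 groups, which shared 1 estimate of spread, and Benjamini-Hochberg adjustment ran over all genes tested at 0.05. LSK libraries of the same mice were added for the difference between populations. The 8 progenitor control libraries held between 8257908 and 14948256 counts, and floors cover counting error only. Each library is a mouse, so p-values measure the spread between mice within 1 cohort per group.

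Genes were named from the gene lists, from the largest and best supported calls of the comparison, and from the best supported differences between contrasts. The members, lists and promoter motifs were chosen with earlier results of these data known, so that list counts are descriptions. Progenitor and LSK libraries of a mouse deviated together, with correlations of 0.253 to 0.472 over genes. The count of calls with the mouse as a block therefore stands beside that result. Differences, SEs and adjusted p-values of single genes between the populations come from the fit without this block, which takes the 2 libraries of a mouse as independent. Alternatives were DESeq2 1.42.0, its size factors, limma 3.58.1 with voom, other filters, the 8 libraries alone, sex, a length trend, a fold threshold and the leaving out of libraries. The fit was tested on simulated data. It recovered 16.4% of genes changed 1.5-fold, 44.8% of those changed 2-fold and 90.9% of those changed 4-fold, and it called 8 unchanged genes. A gene that was not called may therefore still differ by 2-fold or less. Some genes of these lists are not reported here by name.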

Additional observations from a re-analysis of the deposited data

Results flagged for a closer look

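Single libraries stood far from the other 3 of their group in these named genes, a distance that chance gives in about 1 in 20 groups. Both groups were searched for each of the 147 named genes tested, so that a number of such distances arise by chance. Mx1Cre control 1 was high for Bax (140 CPM), Ms4a3 (963 CPM) and Hba-a1 (28.4 CPM) and low for Meis1 (5.11 CPM), Csf2ra (107 CPM) and Tgfbr2 (8.37 CPM). Mx1Cre control 2 was high for Ifngr1 (451 CPM) and Vwf (9.08 CPM). Mx1Cre control 3 was low for the lysosomal genes Psap (862 CPM), Smpdl3a (83.7 CPM) and Pld4 (80.3 CPM), and Mx1Cre control 4 was high for Naaa (46.8 CPM) and Plk2 (0.63 CPM). CreER control 3 was high for Ms4a3 (484 CPM), Elane (3350 CPM), Mpo (16100 CPM), Cxcr4 (147 CPM), Sdf2l1 (235 CPM) and Ifi209 (126 CPM). CreER control 1 was high for Itga2b (288 CPM) and low for Utp4 (121 CPM).

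The contrast of Mx1Cre with CreER controls differed between progenitors and LSK cells for the following named genes. The test of that difference was the one without the mouse as a block. Values are the log2 fold change in progenitors minus that in LSK cells. Megakaryocyte and platelet genes had differences of -1.90 for Itga2b, -3.16 for Pf4, -5.31 for F2rl2, -3.41 for Rab27b and -2.56 for Vwf. F2r, which is outside the megakaryocyte list, had -2.86. Stem and mast cell genes had -2.01 for Gata2, -1.92 for Angpt1, -4.29 for Slamf1 and -1.46 for Il1rl1, and Cd34 had 0.97. Targets of p53 had -1.41 for Cdkn1a, -0.74 for Ccng1, -1.38 for Zmat3 and -1.02 for Psrc1. Interferon genes had 1.59 for Ly6a and 2.43 for Ifi27l2a, and Irf5 had 1.11. Lysosomal genes had 0.87 for Smpdl3a and 1.12 for Naaa. Other genes had -2.35 for Lat, -6.83 for Tnfsf4, -5.38 for Robo3, -3.27 for Egr1, -2.20 for Spns2, -3.14 for Mycn and -2.97 for Parm1. The fitted value of Tnfsf4, which had no count in progenitor Mx1Cre controls, is no bound.

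The contrast differed between controls and knockouts for 7 named genes, given as the log2 fold change in controls minus that in knockouts: -2.73 for Pf4, -3.90 for Robo3, -3.12 for Parm1, 4.73 for Zfp970, 3.13 for Ica1, 8.29 for Map7d3 and 1.62 for Eepd1. Map7d3 had no count in the Mx1Cre knockouts, so that its fitted value is no bound.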

How the results depend on the processing

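The 3458 calls between progenitor controls became 2297 with the 8 libraries alone, 2128 with females alone and 981 (502 higher, 479 lower) against a fold of 1.5, and ranged from 2316 to 3753 when 1 control was left out. The other tests, normalizations, filters and covariates stayed within 1.5 times. With the replicate number as a block the count was 3166; same-numbered mice of the 2 lines are different animals and did not deviate together (r between -0.194 and 0.07). Blocked counts were 3047 for the knockouts, 39 for the difference between control and knockout contrasts, 2939 for LSK cells and, with the mouse as the block, 571 for the difference between populations. DESeq2 called 120 genes in place of 41 for controls minus knockouts and 395 in place of 160 for progenitors minus LSK cells. Leaving out 1 library gave 2032 to 3351 calls in the knockouts, with 2032 without CreER knockout 1 and 2068 without Mx1Cre knockout 3. For controls minus knockouts it gave 25 to 60, with 25 without CreER control 1 and 25 without CreER control 4. For progenitors minus LSK cells it gave 64 to 320: 64 without LSK CreER control 3 or progenitor CreER control 1, 78 and 320 without progenitor CreER controls 2 and 3, 81 and 82 without LSK Mx1Cre controls 1 and 2, and 298 and 101 without progenitor Mx1Cre controls 2 and 4. For LSK cells it gave 2107 to 2990. The cause of these shifts was not tested. Of the 121 named genes that were called, 96 kept the call in every alternative other than the fold test and 25 lost it in at least 1; of 26 not called, 7 were called in at least 1, and 0 reversed. Ctsg, Mpo, Ifi209, Ifngr2 and Sting1 lost it with females alone and in no other alternative but the fold test. Chosen after seeing the data, the fit without Mx1Cre control 1 and Mx1Cre knockout 4 called 4443 genes and that without Mx1Cre controls 3 and 4 called 2618.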

Other observations

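Of 23 unfolded protein response genes 8 rose, 2 fell and 13 were not called, with a median log2 fold change of 0.31. Xbp1, the factor that widens secretory capacity, had 254, 228, 241 and 235 CPM in Mx1Cre controls and 123, 125, 156 and 110 CPM in CreER controls (log2 fold change 0.90 ± 0.13; edgeR adjusted p = 0.000297), with no overlap. The chaperone genes Sdf2l1 and Manf rose by 0.76 ± 0.18 and 0.74 ± 0.20, while the stress genes Sesn2, which is also a p53 target, and Trib3 had log2 fold changes of -1.42 ± 0.34 and -1.66 ± 0.55 (edgeR adjusted p at most 0.0383). The call for Sdf2l1 was lost without Mx1Cre controls 3 and 4 (edgeR adjusted p = 0.080) and that for Manf with the 8 libraries alone (0.058). Trib3 was not called without Mx1Cre control 1, 2 or 3 or CreER control 2 or 4 (edgeR adjusted p = 0.0656 to 0.114), nor without Mx1Cre controls 3 and 4 (0.0839). Of 15 heat shock genes 2 fell, a share near the 10.9% of all genes that fell, and 0 rose, against 14.3% of all genes. Hsph1 fell by 0.72 ± 0.16 on the log2 scale (edgeR adjusted p = 0.00387). Immediate early genes were mixed, with 5 of 24 lower and 2 higher, where 25.3% of all genes were called in either direction. Fosb had 3.56, 15.8, 2.33 and 5.22 CPM in Mx1Cre controls and 64.6, 14.5, 19.3 and 123 CPM in CreER controls, groups that overlap, and it was not called without Mx1Cre controls 3 and 4 (edgeR adjusted p = 0.0835).

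Metabolic lists had calls in both directions, in numbers near the 25.3% of all genes called. Of 28 cholesterol synthesis genes 4 rose and 5 fell, with a median of -0.01: Fdps, an early enzyme, rose by 0.93 ± 0.18 and Lss, which closes the sterol ring, fell by 1.10 ± 0.20 on the log2 scale (edgeR adjusted p at most 0.0019). Of 21 glycolysis genes 5 rose and 2 fell, with a median of 0.25. Hk1, hexokinase 1, had 233, 330, 245 and 293 CPM in Mx1Cre controls and 687, 621, 539 and 577 CPM in CreER controls (log2 fold change -1.14 ± 0.15; edgeR adjusted p = 0.000148). Pkm, pyruvate kinase, rose by 0.93 ± 0.18 on the log2 scale (edgeR adjusted p = 0.00155). Of 22 iron and heme genes 3 rose and 3 fell, with a median of 0.19. Of 16 estrogen receptor and response genes 4 rose and 2 fell. Of 11 genes beside the Rosa26 locus, which carries CreERT2 in the CreER mice, 2 rose and 0 fell: Arpc4 by 0.56 ± 0.17 and Mtmr14 by 0.54 ± 0.16 on the log2 scale (edgeR adjusted p at most 0.0208), against 14.3% of all genes that rose. Both calls depended on single libraries: Arpc4 was not called without Mx1Cre control 1 or CreER control 1, 2 or 4 (edgeR adjusted p = 0.05001 to 0.0743), nor Mtmr14 without Mx1Cre control 2 or 4 or CreER control 4 (0.0502 to 0.0761) or without Mx1Cre controls 3 and 4 (0.177). Of the 10 HBO1 complex subunits Jade2 and Jade3 had log2 fold changes of -0.73 ± 0.20 and -0.94 ± 0.29 (edgeR adjusted p at most 0.029). Jade2 was not called without CreER control 1 (edgeR adjusted p = 0.0542), nor Jade3 without CreER control 1 or 2 or Mx1Cre control 4 (0.0621 to 0.0949). Of 10 MHC class II genes 2 rose and 2 fell.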
